A study of Mus musculus with 8 samples.

Results

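The regions described here are sites of histone H3 lysine 27 acetylation (H3K27ac) at the ends of long noncoding RNA (lncRNA) genes in the mouse small intestinal crypt. The 8 deposited H3K27ac peak lists were merged into 112301 regions. A region was kept if it was under 5 kb wide, held a peak in at least 4 of the 8 lists, lay within 1 kb of an end of a RefSeq lncRNA gene and lay over 1 kb from every end of a protein-coding gene. This left 1979 regions of the 35844 that were under 5 kb and recurred in at least 4 lists. Of the others, 9873 lay at protein-coding gene ends and 23992 lay over 1 kb from any end of either gene class and are called distal.

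The material came from C57BL/6J male mice aged 9 weeks, with no genetic change named in the labels. Crypts were freed in HBSS with EDTA and broken into single cells with trypsin, and CUT&Tag, in which an antibody guides a transposase to a chromatin mark, was run for H3K27ac and for acetylated lysine 9 (H3K9ac). The Fed groups ate normally and the Fast groups were fasted for 24 h, each without tetracycline (-Tetra) or after tetracycline for 21 days (+Tetra), an antibiotic that depletes gut bacteria. Each mark had 1 sample in each of the 4 groups, and each sample had 2 peak lists, numbered 1 and 2. The labels do not say whether the lists came from different mice, so the spread between lists may be technical, and p-values over lists measure only that spread.

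H3K27ac is laid down by the acetyltransferases p300 and CBP at active promoters and active enhancers alike. H3K9ac is more concentrated at the starts of transcribed genes. A lncRNA gene is transcribed like a coding gene, often from its own promoter, but many annotated lncRNAs start at enhancers, and some serve mainly to host small nucleolar RNAs (snoRNAs) or microRNAs in their introns. CpG islands, stretches where the CpG dinucleotide is not depleted, mark most promoters of broadly expressed genes.

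Epithelial markers carried H3K27ac in every list: of 10 genes, among them Epcam, Vil1 and Cdx2, between 9 and 10 had a peak within 1 kb of an end. Of 8 immune genes, 2 to 5 were marked in the Fed lists and 4 to 6 in the Fast lists. Ptprc, the pan-leukocyte gene, had a peak in 0 of 4 Fed and 4 of 4 Fast lists, the T cell gene Cd3e in 4 Fed and 2 Fast lists, the B cell gene Cd79a in 4 and 4, and Cd4 had none in any list. Of 7 mesenchymal and endothelial genes, 0 to 1 were marked in a Fed list and 0 to 2 in a Fast list, and Col1a1 and Pecam1 had no peak. The lists held 32392 to 68545 H3K27ac peaks and 17249 to 99050 H3K9ac peaks. The 2 Fast H3K9ac lists numbered 1 were the longest, with 99050 and 97764 peaks of a median width of 423 and 413 bp.

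Promoters of lncRNA genes under these regions differed in CpG content, and 7, chosen after their values were seen, are printed here to show the range. Each runs from 250 bases before to 50 bases after the RefSeq start, 5′ to 3′ on the gene's strand, on GRCm38.p6, with every CpG in capitals. The first 3 lay under H3K27ac in 8 of 8 lists and under H3K9ac in 7 or 8. They belong to E130102H24Rik, which holds miR-101a (chr4:101356199-101356498, minus strand, 47 CpGs), to Dleu2, the host of miR-16-1 (chr14:61682324-61682623, minus strand, 29 CpGs), and to Snhg15, a snoRNA host (chr11:6528711-6529010, minus strand, 29 CpGs).
E130102H24Rik: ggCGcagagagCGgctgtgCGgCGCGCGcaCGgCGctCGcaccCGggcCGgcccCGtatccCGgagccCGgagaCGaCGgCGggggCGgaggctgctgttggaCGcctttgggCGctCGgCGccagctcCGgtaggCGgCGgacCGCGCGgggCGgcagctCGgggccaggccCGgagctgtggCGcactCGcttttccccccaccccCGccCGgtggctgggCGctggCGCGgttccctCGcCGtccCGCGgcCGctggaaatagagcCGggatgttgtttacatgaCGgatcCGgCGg
Dleu2: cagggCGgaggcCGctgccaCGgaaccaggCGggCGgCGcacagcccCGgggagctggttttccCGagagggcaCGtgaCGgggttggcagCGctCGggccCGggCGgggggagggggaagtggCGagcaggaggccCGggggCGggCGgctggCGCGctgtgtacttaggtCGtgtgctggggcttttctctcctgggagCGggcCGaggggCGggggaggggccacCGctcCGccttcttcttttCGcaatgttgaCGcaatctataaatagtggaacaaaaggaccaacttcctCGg
Snhg15: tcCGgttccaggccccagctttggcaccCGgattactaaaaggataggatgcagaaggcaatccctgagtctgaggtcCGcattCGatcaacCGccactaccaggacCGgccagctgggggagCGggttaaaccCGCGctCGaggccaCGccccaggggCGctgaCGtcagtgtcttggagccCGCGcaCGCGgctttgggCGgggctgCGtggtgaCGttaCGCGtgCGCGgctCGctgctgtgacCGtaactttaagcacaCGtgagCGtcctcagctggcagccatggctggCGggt
The fourth, of the microRNA host Mir22hg (chr11:75461289-75461588, plus strand, 12 CpGs), had both marks in 8 lists and an intermediate CpG content.
Mir22hg: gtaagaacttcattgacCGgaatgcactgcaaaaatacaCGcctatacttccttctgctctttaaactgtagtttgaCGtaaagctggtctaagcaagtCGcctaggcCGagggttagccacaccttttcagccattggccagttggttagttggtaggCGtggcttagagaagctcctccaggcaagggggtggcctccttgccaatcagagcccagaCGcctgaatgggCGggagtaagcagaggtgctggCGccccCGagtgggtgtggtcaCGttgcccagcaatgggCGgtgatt
The last 3 were poor in CpG. Gm39851 (chr2:73938899-73939198, plus strand, 2 CpGs) had H3K27ac in 8 lists and H3K9ac in none. Mexis (chr4:53270183-53270482, minus strand, 3 CpGs), a lncRNA known to act on the cholesterol exporter gene Abca1, had H3K27ac in 8 lists and H3K9ac in 1. Gm12511 (chr4:55571542-55571841, plus strand, 2 CpGs), the annotated lncRNA start 38.7 kb from the nearest end of Klf4, had H3K27ac in the 4 Fast lists and in no Fed list, and no H3K9ac.
Gm39851: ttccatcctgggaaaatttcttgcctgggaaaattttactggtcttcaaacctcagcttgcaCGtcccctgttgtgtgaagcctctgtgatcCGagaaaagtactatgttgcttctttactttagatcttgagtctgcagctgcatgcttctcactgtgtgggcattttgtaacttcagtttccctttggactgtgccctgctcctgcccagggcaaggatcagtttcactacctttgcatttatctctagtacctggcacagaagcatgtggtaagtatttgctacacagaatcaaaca
Mexis: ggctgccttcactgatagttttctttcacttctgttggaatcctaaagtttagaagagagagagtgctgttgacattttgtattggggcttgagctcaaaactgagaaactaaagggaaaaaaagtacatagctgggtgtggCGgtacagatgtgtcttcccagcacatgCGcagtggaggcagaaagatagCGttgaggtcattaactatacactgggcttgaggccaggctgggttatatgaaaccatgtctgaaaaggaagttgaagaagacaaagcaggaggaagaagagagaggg
Gm12511: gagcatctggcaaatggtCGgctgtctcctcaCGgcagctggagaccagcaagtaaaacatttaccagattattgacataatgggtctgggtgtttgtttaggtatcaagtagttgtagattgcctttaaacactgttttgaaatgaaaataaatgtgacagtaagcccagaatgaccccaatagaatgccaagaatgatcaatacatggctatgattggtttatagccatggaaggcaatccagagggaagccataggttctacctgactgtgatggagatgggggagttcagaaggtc
The CpG observed-to-expected ratio of these windows, which is 1 when CpG is as frequent as its C and G content predicts, was 1.07 for E130102H24Rik, 0.856 for Dleu2, 0.927 for Snhg15, 0.541 for Mir22hg, 0.133 for Gm39851, 0.222 for Mexis and 0.149 for Gm12511.

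The 1979 regions belonged to 1736 lncRNA genes, which is 13.6% of the 12727 on chromosomes 1 to 19, X and Y. A further 1043 lncRNA genes had an H3K27ac region that also lay at a protein-coding end, 169 had one of 5 kb or more, 1877 had one in under 4 lists and 7902 had none. Most member genes are known only by number: 1335, or 76.9%, are predicted genes with Gm symbols, against 79.6% of all lncRNA genes, and 274 are Rik clones. The 60 genes with another kind of symbol made up 20.7% of all such lncRNA genes. Region width had a median of 1609 bp (quartiles 1202 and 2382 bp), against 1869 bp at protein-coding ends and 1334 bp at distal regions. The lncRNA end lay inside the region itself for 1190 regions (60.1%). The body of a protein-coding gene overlapped 667 regions (33.7%), and the median distance to the nearest protein-coding end was 17.8 kb. The X chromosome had 23 regions, or 7.96 per 100 lncRNA genes, the Y had 0, and chromosome 19 had 23.6 per 100.

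H3K27ac at these regions was used to choose them, so its recurrence is a description. A peak was present in all 8 lists at 871 regions (44.0%), against 62.1% at protein-coding ends and 35.1% at distal regions, and in exactly 4 lists at 268. By list, the share with a peak was 73.2% and 92.9% in Fed -Tetra, 79.5% and 93.9% in Fast -Tetra, 70.1% and 90.1% in Fed +Tetra, and 86.8% and 81.5% in Fast +Tetra. In every sample but Fast +Tetra, list 2 stood above list 1 by more than the group means differ. The score of a peak, the authors' own value with no unit stated, was used only as a rank within its list. By the median rank over the 8 lists, with a list without a peak counted as 0, the highest regions were Gm35239 near Arhgap5 and Gm35607 near Csnk1a1, both at the 99.5th percentile, and Gm31901 near the transcription factor gene Ets2 at the 99.0th. The other 7 of the top 10 were Gm10910 near Prdm10 (98.9th), 2 regions of 9130230L23Rik near Chrna9 and Rbm47 (98.7th and 98.5th), Gm41938 near Tmem37 (98.6th), Mir22hg (98.6th), Gm38794 near Kdm7a (98.5th) and Gm2885 near Ezr, the gene of the microvillus protein ezrin (98.5th). These did not share an H3K9ac state. H3K9ac was in 8 lists at Gm35239, Gm10910, Mir22hg and 1 region of 9130230L23Rik, in 7 at Gm2885, in 6 at the other region of 9130230L23Rik, in 5 at Gm35607 and in 3 at Gm31901, Gm41938 and Gm38794.

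H3K9ac took no part in the choice of regions and could be tested. It was present at 21.0% and 49.6% of the regions in the Fed -Tetra lists, 39.6% and 31.8% in Fast -Tetra, 32.5% and 39.5% in Fed +Tetra, and 45.9% and 36.1% in Fast +Tetra. The mean over the 8 lists was 37.0% ± 8.90 (SD, n = 8 lists). At protein-coding ends chosen by the same H3K27ac rule it was 75.5% ± 5.77, and at distal regions 26.6% ± 8.04 (SD, n = 8 lists each). The regions at lncRNA ends were therefore below protein-coding ends: the difference was -38.5 percentage points on average and between -50.4 and -32.2 points by list. The gap had 1 sign in 8 of 8 lists (exact two-sided sign-flip permutation test, p = 0.00781, adjusted p = 0.0117 over 9 tests), the smallest p that 8 lists allow. Against distal regions they were higher by 10.4 points, with lists between 8.44 and 12.6 points, again in 8 of 8 lists (exact permutation p = 0.00781, adjusted p = 0.0117). With the mean of the 2 lists of a sample as the unit, the same differences have n = 4 and the smallest exact permutation p is 0.125, so no difference between region sets can pass the threshold at that level. Among regions 1 to 2 kb wide, an alternative added after the data were seen, the differences were -40.5 and 6.44 points.

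**Figure D1:**
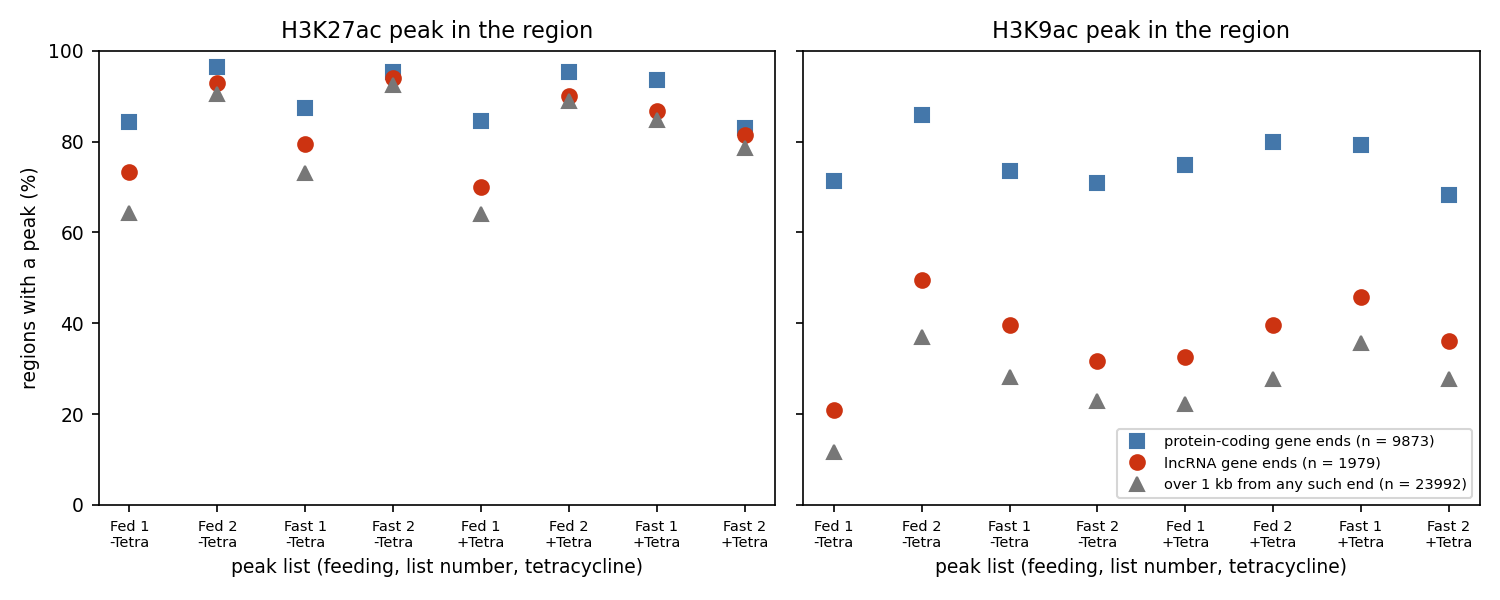
Share of regions (%) with an H3K27ac peak (left) or an H3K9ac peak (right) in each of the 8 lists of the mark, for regions at lncRNA gene ends, regions at protein-coding gene ends and distal regions. In the right panel the lncRNA ends (21.0% to 49.6%) lie between the other sets in every list. In the left panel the values follow from the choice of regions.

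H3K9ac was in all 8 lists at few lncRNA ends. It was in 8 lists at 122 regions (6.16%), against 35.4% at protein-coding ends and 1.96% at distal regions, and in no list at 307 (15.5%), against 2.67% and 24.0%. The number of H3K9ac lists went with the number of H3K27ac lists: regions with H3K27ac in 4 lists had H3K9ac in 1.18 lists on average and a median width of 1084 bp, and those with H3K27ac in 8 lists had 4.21 and 2262 bp. Wider regions can meet a peak more often, and the part of width in this relation was not tested. The strongest H3K9ac regions by rank within the 8 lists were Gm34102, Gm38560, Gm15331, 5430416N02Rik and Gm41810. At Gm34102, 18.5 kb from the nearest end of Mia3, H3K9ac peaks covered 1598 and 1814 bp in Fed -Tetra, 1246 and 1536 bp in Fast -Tetra, 1425 and 1461 bp in Fed +Tetra and 1815 and 1751 bp in Fast +Tetra. Fed and Fast values overlap when both tetracycline states are pooled, but not within either state, where Fed was the longer without tetracycline and Fast the longer with it. Among regions with H3K27ac in 8 lists and H3K9ac in 0, the highest by H3K27ac rank were Gm10787, Gm52871, Gm39851, Gm12320 and Gm52128, with H3K27ac ranks between the 80.0th and 92.7th percentile. Gm52871 lies 1.72 kb from Cidec, which codes for a lipid droplet protein.

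The H3K9ac share differed between regions at a lncRNA start and regions elsewhere at such genes. A RefSeq promoter window of a lncRNA gene overlapped 739 regions, called starts here. Another 794 regions lay at a lncRNA gene that has a window in the table but overlapped no window, and are called other ends. They can lie beside a start as well as at the far end of the gene. A region at Firre, for instance, lay 543 bp from the gene end that holds its start. The remaining 446 belong to genes not in that table. H3K9ac was present at 46.3% ± 8.27 of starts and at 29.4% ± 9.30 of other ends (SD, n = 8 lists). The difference of 16.9 points had lists between 11.6 and 20.2 points and was positive in 8 of 8 (exact two-sided sign-flip permutation p = 0.00781, adjusted p = 0.0117 over 9 tests). Starts were also wider than other ends, with median widths of 1735 and 1516 bp.

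CpG content divided the starts further. A start was called CpG-rich if a window in it had a CpG ratio of at least 0.6 and at least 50% G and C, which held for 144 of the 739. H3K9ac was present at 79.3% ± 7.59 of CpG-rich lncRNA starts and at 38.3% ± 9.35 of the 595 CpG-poor ones (SD, n = 8 lists). The difference was 41.0 points, between 27.5 and 60.6 by list, and positive in 8 of 8 lists (exact permutation p = 0.00781, adjusted p = 0.0117). H3K9ac was in all 8 lists at 37.5% of CpG-rich and 5.55% of CpG-poor starts, and in none at 1.39% and 15.0%. CpG-rich starts were also wider than CpG-poor ones, with median widths of 1977 and 1671 bp. More of them had H3K27ac in all 8 lists, 59.7% against 46.2%.

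The lncRNA starts were then set against coding gene starts of the same CpG class. At CpG-rich protein-coding starts (n = 5132 regions) the H3K9ac share was 86.3% ± 5.63, which left the lncRNA starts at -7.02 points, between -13.5 and -2.77 points by list. At CpG-poor protein-coding starts (n = 1619 regions) it was 72.4% ± 6.39, and the lncRNA starts stood at -34.1 points, between -43.4 and -29.2 by list. Both differences were negative in 8 of 8 lists (exact permutation p = 0.00781 and adjusted p = 0.0117 for each). The ranges of the gap by list do not overlap between the CpG classes; the difference between the gaps was not itself tested. The sets also differed in H3K27ac recurrence. H3K27ac was in all 8 lists at 59.7% of CpG-rich lncRNA starts, against 70.3% of CpG-rich protein-coding starts. For CpG-poor starts the shares were 46.2% and 57.8%. The part of recurrence in these gaps was not tested. The 4 tests on starts and CpG classes were added after the data were seen.

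Read the other way, the CpG ratio of the 870 lncRNA promoter windows under these regions went with the number of H3K9ac lists. The median ratio was 0.193 where H3K9ac was in 0 lists, 0.279 where it was in 4 and 0.756 where it was in 8, and the share of CpG-rich windows was 1.94%, 7.78% and 56.9%. By H3K27ac lists, which the rule limits to 4 or more, the median ratio was 0.255 at 4 lists and 0.312 at 8. The share of CpG-rich windows was 8.16% and 22.6% there. This is a description across promoters, several of which share a region.

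**Figure D2:**
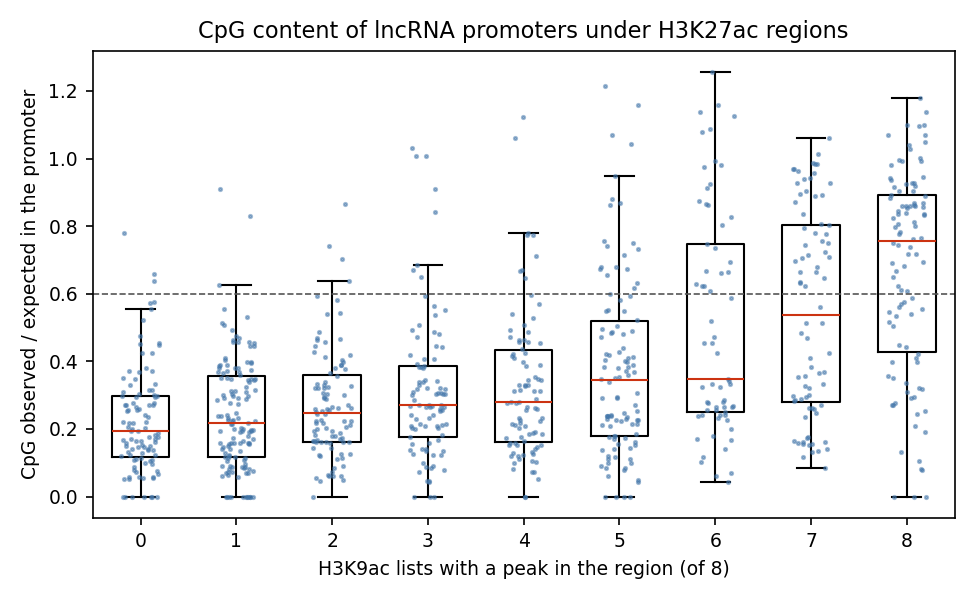
CpG observed-to-expected ratio of each lncRNA promoter window (points) under an H3K27ac region, by the number of H3K9ac lists with a peak in the region; boxes give the quartiles, red lines the medians, whiskers reach the last point within 1.5 box lengths, and the dashed line marks 0.6. The medians lie at 0.193 for 0 lists and 0.756 for 8.

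Sequence motifs were searched on both strands of the same windows, by exact letters. The SP/KLF motif CCCGCCC, a box bound by zinc-finger factors of that family, was found in 36.3% of windows with H3K9ac in 7 or 8 lists and in 6.30% of those with H3K9ac in 0 or 1, against 10.3% of all lncRNA windows and 33.9% of protein-coding ones. The ETS motif CCGGAA was found in 17.6% and 6.72%, against 7.94% of all lncRNA windows. In the other direction, the CDX motif TTTATG, named for the intestinal homeobox factors Cdx1 and Cdx2, was found in 3.85% and 18.9%, against 15.8% of all lncRNA windows. The AP-1 motif TGANTCA was found in 5.49% and 16.8%, against 9.31%, and the GATA motif AGATAA in 6.04% and 16.4%, against 14.0%. The HNF4 motif CAAAGTCCA was found in 0 of the first set and 0.420% of the second. These windows also differed in G and C content, with medians of 58.0% and 48.3%, which alone changes how often GC-rich and AT-rich letters occur. A match is not a bound site.

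Among lncRNAs with known names, 6 lists were described by role: snoRNA hosts, microRNA hosts, nuclear and architectural lncRNAs, imprinted lncRNAs, HOX and developmental lncRNAs, and lncRNAs linked to stress and p53. Of the 79 genes of these lists in RefSeq, 24 (30.4%) were at one of the regions, against 13.6% of all lncRNA genes. H3K27ac was in 8 lists at 14 of the 24, H3K9ac in 8 lists at 12, and H3K9ac was absent at 1.

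SnoRNA hosts are spliced noncoding genes whose introns carry the small RNAs that guide chemical modification of ribosomal RNA. All but 2 of the 21 in RefSeq had a recurrent H3K27ac region. Members of the set were 9: Snhg4, Snhg5, Snhg7, Snhg12, Snhg15, Snhg16, Snhg17, Snhg20 and Dancr. Another 10, among them Gas5, Snhg1, Snhg3 and Zfas1, had their region at a protein-coding end, with H3K27ac in 7 or 8 lists. At Dancr (chr5:74092334-74094008) H3K27ac covered 1172 and 1098 bp in Fed -Tetra, 949 and 1163 bp in Fast -Tetra, 1071 and 1221 bp in Fed +Tetra and 1675 and 1200 bp in Fast +Tetra. Fed and Fast values overlap over both tetracycline states, although both Fast +Tetra values were above every value without tetracycline. Snhg15 (chr11:6526929-6529415), whose promoter is printed above, was different: 865 and 1332 bp in Fed -Tetra, 1662 and 2006 bp in Fast -Tetra, 941 and 1079 bp in Fed +Tetra and 1611 and 2361 bp in Fast +Tetra. Every Fast value at Snhg15 was above every Fed value. Its H3K9ac covered 713, 1422, 666 and 273 bp in the Fed lists and 1317, 2271, 1911 and 0 bp in the Fast lists, which overlap.

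Of 20 microRNA hosts, 4 were members: Mir22hg, Mirc35hg, Dleu2 and Ftx, while 15 had no H3K27ac region at an end, among them Mir155hg, Mir17hg, H19 and Meg3. In all, 23 microRNA hairpins lay inside 17 lncRNA genes with a member region. A hairpin lay within the acetylated region itself in 3 cases, miR-22 at Mir22hg, miR-31 at Gm49890 and miR-6516 at Snhg20. The mature microRNAs are shown to name what these genes carry, with the seed (bases 2 to 8, which pair with targets) in capitals, from RefSeq on GRCm38.p6.
miR-22-3p: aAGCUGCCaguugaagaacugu
miR-31-5p: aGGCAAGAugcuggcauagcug
miR-101a-3p: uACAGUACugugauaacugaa
miR-16-5p: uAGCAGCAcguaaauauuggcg
miR-29b-3p: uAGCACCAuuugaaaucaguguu
miR-29c-3p: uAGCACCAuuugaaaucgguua
let-7b-5p: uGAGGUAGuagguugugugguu
let-7c-5p: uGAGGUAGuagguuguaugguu
miR-183-5p: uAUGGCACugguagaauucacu
miR-96-5p: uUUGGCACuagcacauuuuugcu
miR-182-5p: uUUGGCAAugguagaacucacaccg
The miR-29b and miR-29c arms, both in A330023F24Rik, have the same seed AGCACCA, and let-7b and let-7c, both in Lncppara, share GAGGUAG. The seeds of the others differ from each other, although miR-183, miR-96 and miR-182 come from 1 host, Mirc35hg.

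Mir22hg had H3K27ac over 3953 and 3985 bp in Fed -Tetra, 3938 and 4216 bp in Fast -Tetra, 3340 and 3988 bp in Fed +Tetra and 3529 and 3522 bp in Fast +Tetra. Its H3K9ac covered 2781, 3962, 2574 and 3327 bp in the Fed lists and 3440, 3222, 3111 and 694 bp in the Fast lists. For both marks the Fed and Fast values overlap at Mir22hg. Dleu2 (chr14:61680448-61683863) had H3K27ac between 2640 and 3412 bp long and H3K9ac between 2208 and 3227 bp in its 8 lists each. Mirc35hg had H3K9ac in 8 lists but H3K27ac in 7, with no peak in Fast +Tetra list 2. The host of miR-31, Gm49890 (chr4:88909763-88911021), had a smaller and less regular signal: H3K27ac covered 0 and 748 bp in Fed -Tetra, 514 and 945 bp in Fast -Tetra, 666 and 1231 bp in Fed +Tetra and 698 and 0 bp in Fast +Tetra. H3K9ac at Gm49890 was found only in the Fast lists numbered 1, over 631 and 290 bp, which are the longest H3K9ac lists. The Fed and Fast H3K27ac values overlap at this region, which holds miR-31, a microRNA known from work on intestinal stem cells. Another region of Gm49890 (chr4:88908320-88908964) had H3K27ac in 2 Fed and 2 Fast lists and no H3K9ac.

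Of 11 nuclear and architectural lncRNAs in RefSeq, 6 were members. Oip5os1 (the lncRNA also called Cyrano) had both marks in 8 lists at its CpG-rich start. Malat1, which lies in nuclear speckles, had H3K27ac in 8 lists and H3K9ac in 5 at a region away from its annotated start. Neat1, the scaffold of paraspeckles, had H3K27ac in 5 lists and H3K9ac in 2 at a region over the lower-coordinate end of its gene. Neat1 has no promoter window among those used, so these values are not shown to be those of its start. Norad, which binds Pumilio proteins, had H3K27ac in 6 lists and H3K9ac in 8, an order unlike most of the others. From the X chromosome came Firre, with H3K27ac in 8 lists and H3K9ac in 7 at its start and 4 and 3 at another region. Jpx, an activator of Xist, had 7 and 6. Xist itself had no H3K27ac region, in crypts of male mice.

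Imprinted lncRNAs gave 2 members of 8, Airn and Peg13. Airn, which silences Igf2r on the paternal chromosome, had H3K27ac in 6 lists and H3K9ac in 8, and Peg13 had 6 and 6. H19, Meg3, Rian and Mirg had no H3K27ac region. Of 5 lncRNAs of the stress and p53 list, Lockd, Mir22hg and Lncpint were members. Lncpint (chr6:31088841-31093135) had H3K27ac in 7 lists, over 686 to 3311 bp where present, and H3K9ac in none. The region lies 428 bp from an end of the gene and overlaps no lncRNA promoter window.

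HOX and developmental lncRNAs were the list with the fewest members, 1 of 21 (4.76%). That member was Carmn, known from smooth muscle, with H3K27ac in 7 lists and H3K9ac in 3 (mesenchymal and endothelial markers stood at 0 to 2 of 7 genes per list, and their part was not tested). No H3K27ac region lay at an end of 16 of the genes, including Hotair, Hottip, Halr1, Fendrr and Sox2ot. Gata6os and Hnf4aos, beside gut endoderm factors, had both marks in 8 of 8 lists but in regions too wide for the rule, of 10475 bp and 7368 bp. Gata6 and Hnf4a are transcription factors of the intestinal epithelium. Among lncRNAs named for lying opposite a coding gene, 34 of 212 (16.04%) were members. Of these, Peak1os had both marks in 8 lists. Slc6a19os, beside the neutral amino acid transporter gene, had H3K27ac in 8 and H3K9ac in 6 at its stronger region and 7 and 2 at another. Hopxos, beside the homeobox gene Hopx, had 8 and 4 at its stronger region and 6 and 2 at another. The last 3 examples were chosen after their values were seen.

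**Figure D3:**
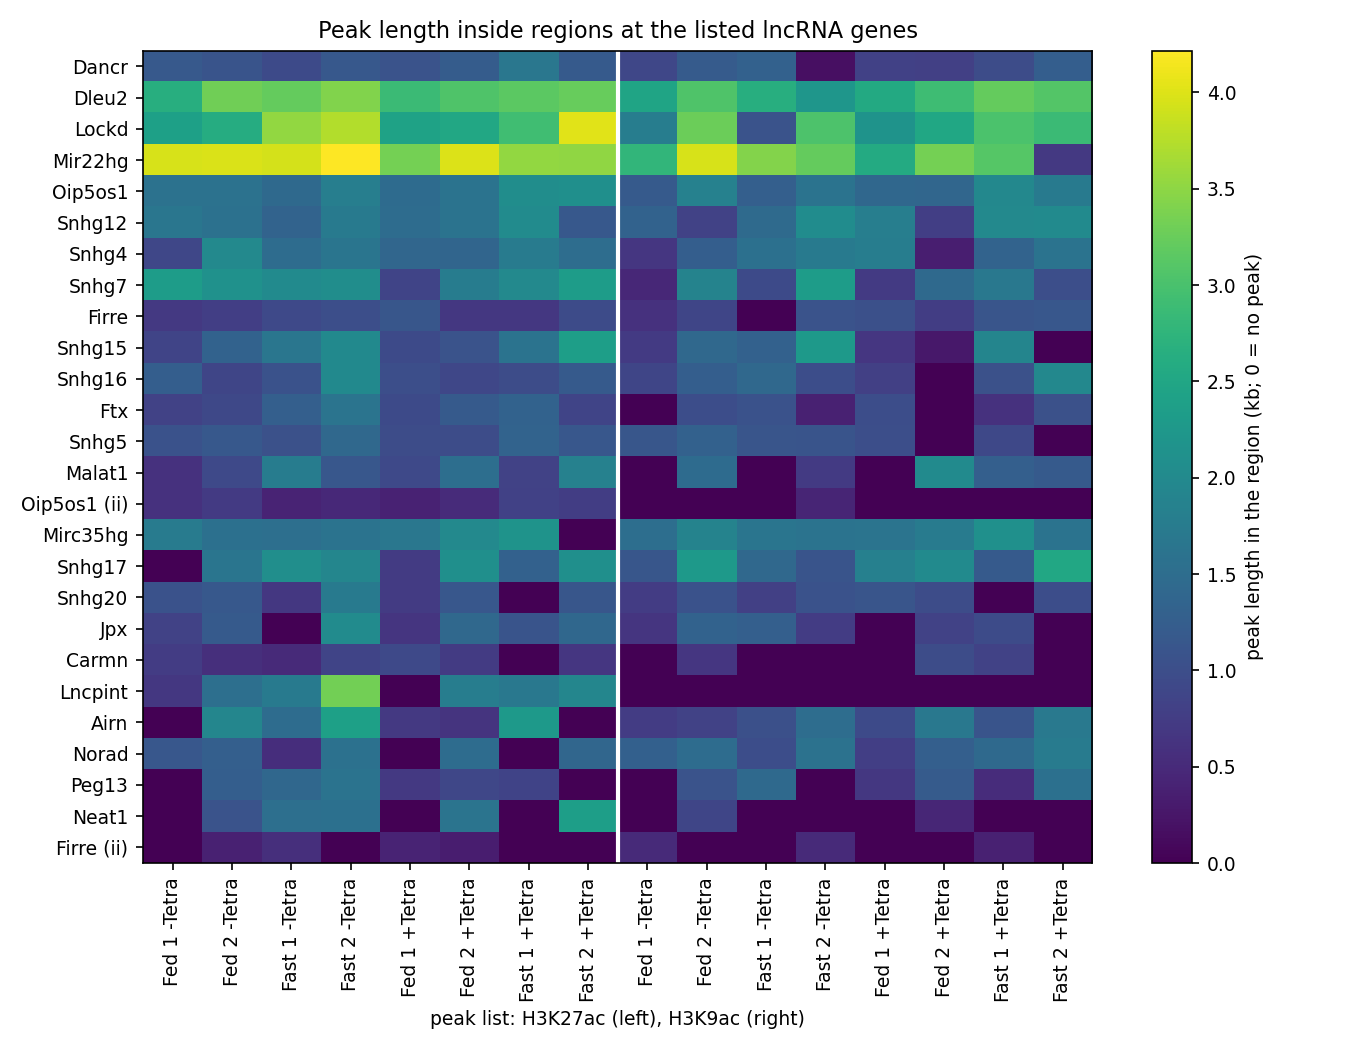
Length of peak (kb) inside the regions at the named lncRNA genes, in the 8 H3K27ac lists (left of the white line) and the 8 H3K9ac lists (right); darkest cells have no peak, and (ii) marks the other region of a gene. Dleu2, Lockd and Mir22hg are covered widely by both marks, and the Lncpint row is empty for H3K9ac.

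No difference in H3K9ac by feeding state was larger than the spread between lists. The mean share was 38.3% ± 5.95 in the 4 Fast lists and 35.7% ± 12.0 in the 4 Fed lists (SD), a difference of 2.69 points (exact permutation within tetracycline states, two-sided p = 0.778, adjusted p = 0.833; 36 arrangements, smallest possible p 0.0556). The direction was not stable. Lists numbered 1 gave Fast above Fed by 18.6 points without and 13.3 points with tetracycline, and lists numbered 2 gave changes of -17.8 and -3.39 points. When each list was cut to an equal number of its best-scoring peaks, the difference was -10.3 points (exact permutation p = 0.111), and with H3K9ac peaks at least 500 bp wide, a setting added after the data were seen, it was -1.96. Tetracycline gave 38.5% ± 5.68 with and 35.5% ± 12.1 without (SD, n = 4 lists each), a difference of 3.04 points (exact permutation p = 0.722, adjusted p = 0.833). The difference between the feeding effects with and without tetracycline was 4.57 points (exact permutation p = 0.833, adjusted p = 0.833). This design could not have given a p under 0.05 for these 3 comparisons.

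In H3K27ac, which chose the regions, 30 had a peak in all 4 Fast lists and in no Fed list, or 1.52%, where 1.25% of all 35844 regions did. The reverse pattern was found at 3, or 0.152%, against 0.262% of all regions. Since nothing is read from these counts for the lncRNA ends as a set, the regions are described one by one. By the same median rank, in which the 4 empty Fed lists count as 0, the leading Fast regions were Gm33849, Gm12707, LOC108167736, Gm4544 and Gm41327. Gm12707 (chr4:95483295-95484657) had 935 and 1242 bp in Fast -Tetra and 985 and 1058 bp in Fast +Tetra, and a further region of the same gene followed the same pattern. LOC108167736 had 1688 and 1782 bp in Fast -Tetra and 1273 and 1728 bp in Fast +Tetra. It also had H3K9ac in the 4 Fast lists, over 560, 1129, 656 and 1295 bp, and in 1 Fed list over 785 bp.

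Of the 30, 3 are given here because their nearest protein-coding gene is known from crypt biology, and they were chosen after their values were seen. Over the 30, the distance to the nearest protein-coding end had a median of 28.8 kb and ran from 1.503 to 956 kb. Gm12511, 38.7 kb from Klf4, a factor of differentiated and goblet cells, had 932 and 1165 bp in Fast -Tetra and 912 and 866 bp in Fast +Tetra. 0610009E02Rik, 1.503 kb from an end of Notch1, the receptor that keeps crypt progenitors from the secretory fate, had 1118 and 1146 bp and 1391 and 1129 bp. A930005G22Rik (chr5:115430390-115432067), 23.6 kb from Msi1, the gene of an RNA-binding protein of intestinal stem cells, had 1026 and 1078 bp and 994 and 1365 bp. At A930005G22Rik H3K9ac followed the same pattern, with 542 and 443 bp in Fast -Tetra, 1143 and 1040 bp in Fast +Tetra and none in the 4 Fed lists. All 3 were weak peaks: with only the upper 0.5 of each list by score, H3K27ac was left in 0 lists at Gm12511, 1 at 0610009E02Rik and 0 at A930005G22Rik. The rank-chosen 5 kept 3 or 4 lists under that setting. The immune marker Ptprc was marked in the 4 Fast and in 0 Fed lists, but Cd3e in more Fed than Fast lists and Cd79a in all; 4 to 6 of 8 immune genes were marked in the Fast lists against 2 to 5 in the Fed lists, and their part in these regions was not tested.

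The 3 regions with H3K27ac in all Fed and no Fast list were Gm34828, Gm42081 and Gm41701. Gm42081, at the start of a gene 18.6 kb from Slc47a1, had 554 and 514 bp in Fed -Tetra and 692 and 688 bp in Fed +Tetra. Where present, the peaks of Gm42081 stood between percentiles 2.52 and 42.4 of their lists, those of Gm41701 between 29.5 and 45.0 and those of Gm34828 between 3.45 and 31.7. Within tetracycline states, 68 regions without tetracycline had peaks in both Fast and neither Fed list (background 3.65%) and 38 the reverse (background 1.78%). With tetracycline the counts were 91 (background 4.15%) and 41 (background 1.98%). As shares of the 1979 these are 3.44%, 1.92%, 4.60% and 2.07%, near the shares of all regions. For H3K9ac the same counts were 50 without tetracycline in both Fast and neither Fed list (2.53%; background 2.04%) and 41 the reverse (2.07%; background 1.97%), and with tetracycline 88 (4.45%; background 3.59%) and 51 (2.58%; background 2.15%).

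**Figure D4:**
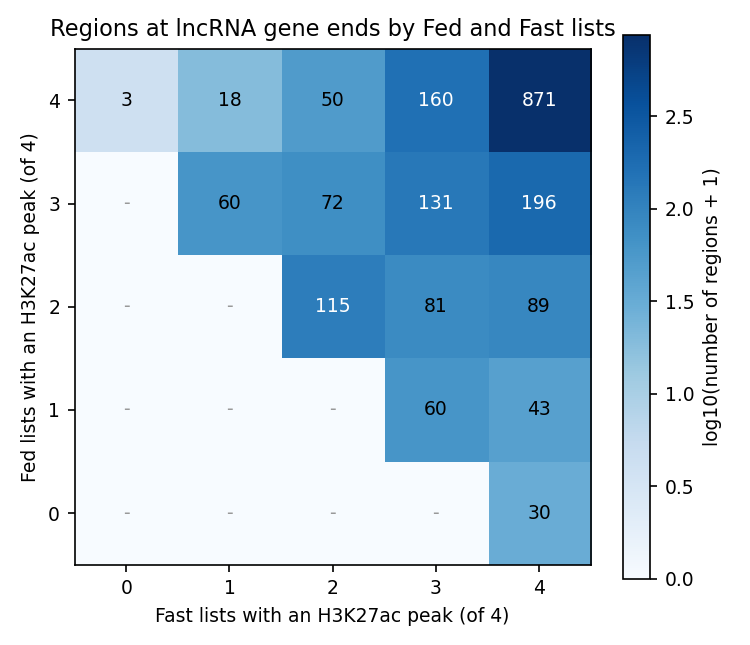
Number of regions at lncRNA ends by the number of Fed lists (vertical) and Fast lists (horizontal) with an H3K27ac peak; dashes mark cells that the rule of at least 4 lists leaves empty, and colour is on a log scale. The corner at 4 and 4 holds 871 regions, 30 have 4 Fast and 0 Fed lists, and 3 have 4 Fed and 0 Fast lists.

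H3K9ac itself was not used by the rule, but the regions counted were chosen by H3K27ac, so the counts are a description. It was in all 4 Fast and no Fed list at 6 regions (0.303%; 0.145% of all regions) and in all 4 Fed and no Fast list at 1 (0.0505%; 0.0753% of all regions). The 6 were Gm38424, A930005G22Rik, 1110002J07Rik, Gm39446, Gm40914 and A830021F12Rik, and the reverse was Gm52862. A930005G22Rik had H3K27ac in 4 lists, all of them Fast, so it was kept through the Fast lists alone. A830021F12Rik had H3K27ac in 5 lists. The Fast H3K9ac lists numbered 1 held 99050 and 97764 peaks, against 17249 to 54158 in the Fed lists, and the part of this was not tested. Of the 6, 2 are given in full, chosen after their values were seen. At Gm40914 the H3K9ac covered 623 and 1038 bp in Fast -Tetra and 522 and 542 bp in Fast +Tetra. Gm40914 also had longer H3K27ac in Fast, with 3537 and 3688 bp in Fast -Tetra and 3230 and 3474 bp in Fast +Tetra, against 1264 and 2325 bp in Fed -Tetra and 985 and 2912 bp in Fed +Tetra. Its H3K27ac was thus in all 8 lists, and longer in each Fast list than in any Fed list. Gm38424 had H3K27ac in 8 lists as well, with H3K9ac over 484 and 1040 bp in Fast -Tetra and 849 and 1232 bp in Fast +Tetra.

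At the 871 regions with H3K27ac in all 8 lists, the length of the peak could be compared. In 49 (5.63%) each Fast list had a longer peak than every Fed list, where 5.18% of all 15415 such regions did, and in 7 (0.804%) the reverse held, against 0.525%. The median log2 ratio of Fast to Fed length was 0.11 for both sets. The regions named here for their lengths, apart from those of the fixed lists, were chosen after their values were seen. The longest relative change was at Gm41866 (chr19:54197953-54200679), 149 kb from Adra2a: 606 and 680 bp in Fed -Tetra, 602 and 748 bp in Fed +Tetra, 2064 and 2549 bp in Fast -Tetra and 2444 and 1992 bp in Fast +Tetra, a log2 ratio of 1.78. Next came Gm15941 and Gm39163, with log2 ratios of 1.28 and 1.24. Gm34845, 7.95 kb from the integrin gene Itga2, went from 605, 460, 675 and 932 bp in the Fed lists to 1746, 2025, 963 and 1564 bp in the Fast lists, a log2 ratio of 1.24. The Fast and Fed values do not overlap at either gene.

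Named lncRNAs among the 49 were Snhg15, Lockd and Prkag2os1. Lockd (chr6:134926574-134930622) lies 1.05 kb from the cell-cycle inhibitor gene Cdkn1b. Its H3K27ac covered 2396 and 2617 bp in Fed -Tetra, 3536 and 3738 bp in Fast -Tetra, 2427 and 2520 bp in Fed +Tetra and 2930 and 4033 bp in Fast +Tetra, a log2 ratio of 0.52. Prkag2os1, inside the gene of a regulatory subunit of AMP-activated protein kinase, had 1378 and 1810 bp and 1927 and 1923 bp in Fed, and 2193 and 2976 bp and 2136 and 2098 bp in Fast. In the reverse direction, Gm41853, 8.40 kb from the desaturase gene Scd2, had 1272 and 1272 bp and 1311 and 1196 bp in Fed, and 780 and 922 bp and 622 and 563 bp in Fast. Its groups did not overlap either.

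**Figure D5:**
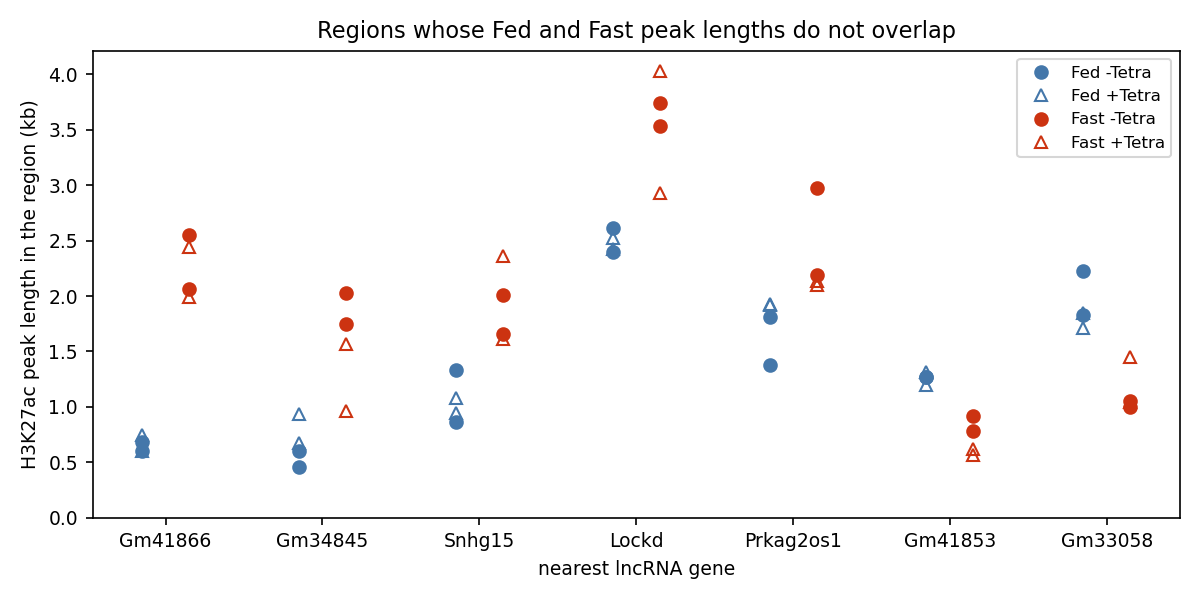
Length of H3K27ac peak (kb) in each of the 8 lists at 7 regions whose Fed (blue) and Fast (red) values do not overlap; filled circles are lists without and open triangles lists with tetracycline. The regions were chosen for this separation; at 5 of them the Fast values are higher and at Gm41853 and Gm33058 the Fed values are higher.

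Tetracycline split fewer regions. H3K27ac was in all 4 lists without tetracycline and in none with it at 4 regions (0.202%; 0.276% of all regions), Gm52742, Gm42142, Gm32276 and Gm35035, and the reverse was found at 0 (0.0753% of all regions). For H3K9ac the pattern of all 4 lists with and none without tetracycline was found at 3 regions (0.152%; 0.126% of all regions), Gm34403, Gm31588 and Gm35338, and its reverse at 1 (0.0505%; 0.0446% of all regions), Gm36819. Peak length was greater in every list without tetracycline at 16 of the 871 (1.84%; 0.824% of all regions) and in every list with it at 2 (0.230%; 0.461% of all regions). Gm33721, 60.6 kb from the clock gene Arntl, was among the 16, with 3166 and 3848 bp in Fed -Tetra and 3892 and 4029 bp in Fast -Tetra, against 1869 and 2364 bp in Fed +Tetra and 1111 and 2164 bp in Fast +Tetra. It was chosen after its values were seen.

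The limits of the rule cut through a continuous set. With H3K27ac in exactly 3 lists, 291 more regions would have met the other conditions; their mean number of H3K9ac lists was 1.18, as it was for the 268 with exactly 4 lists. In the last 500 bp of width below the 5 kb limit there were 35 regions, and in the next 500 bp above it 30. In the last 100 bp inside the 1 kb distance to a lncRNA end there were 68, and in the next 100 bp 84. The widest regions inside the limit were Gm5535 (4982 bp), Gm40673 (4968 bp) and Gm34863 (4963 bp). Gm39782 lay 999 bp from its lncRNA end, and LOC115487370 lay 1.001 kb from an end of Cox20. A further 1241 regions met the rule except that a protein-coding end lay within 1 kb.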

How the data were processed

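CUT&Tag for H3K27ac and H3K9ac was run on 8 samples, and 16 peak lists, 2 per sample, were analysed. Per the submitters' processing notes, reads were handled with FastQC, Bowtie and SAMtools on mm10, with no versions named. Peak names begin with MACS, and the list names call the data downsampled; the caller's version, cutoff and use of the IgG libraries are not given in the sources used here. Peaks were called per list, and each deposited peak has a score assigned by the authors, whose unit is not stated. Scores were compared only inside 1 list, as ranks or to filter peaks. No read totals were in the lists, so depth is unknown and no interval that needs it is given.

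H3K27ac peaks of chromosomes 1 to 19, X and Y were merged where they overlapped by at least 1 bp, and a region had a peak in a list where 1 bp overlapped. Gene ends came from RefSeq on GRCm38.p6, the assembly of mm10, and promoter windows of 300 bases and microRNAs from RefSeq tables on the same build; 9533 of the 12727 lncRNA genes had a window. A region was named by its nearest lncRNA end. The text names the genes of fixed lists, the top 10 regions by H3K27ac rank, up to 5 per feeding direction, the top 5 by H3K9ac in each direction and the regions nearest a limit. All other regions named, and the printed promoters, were chosen after their values were seen. Ranks are medians over 8 lists, with a list without a peak as 0. The regions and lists were chosen with earlier results of these data known.

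H3K9ac shares were compared by exact permutation over lists, two-sided, with Benjamini-Hochberg adjustment over 9 tests. H3K27ac was not tested. Group labels of the samples and the list numbers gave the strata; the numbers appear only in list names. The test code was checked on simulated data. Python 3.11.15, numpy 2.4.6, pandas 2.3.3 and matplotlib 3.10.9 were used. Alternatives changed the peaks kept, the distance, the number of lists, the merging and the lists left out.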

Additional observations from a re-analysis of the deposited data

Results flagged for a closer look

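The Fast minus Fed difference in the H3K9ac share of the regions had opposite signs in the lists numbered 1 and 2. It was 18.6 points without and 13.3 points with tetracycline in lists 1, and -17.8 and -3.39 points in lists 2. The mean was 15.97 points in lists 1 and -10.6 points in lists 2, so the numbers differed by 26.6 points. This difference was not tested, since each number has 1 list per group. At protein-coding ends the means were 3.28 and -13.2 points, and at distal regions 15.0 and -7.08 points. The Fast lists numbered 1 held the most H3K9ac peaks, 99050 and 97764, against 35889 and 53313 in the Fast lists numbered 2; the part of this in the difference was not tested.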

How the results depend on the processing

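The H3K9ac differences between region sets kept their sign under every alternative run. Taking the mean of the 2 lists of a sample as the unit left them at -38.5 (lncRNA minus protein-coding ends), 10.4 (minus distal regions), 16.9 (starts minus other ends), 41.0 (CpG-rich minus CpG-poor starts), -7.02 and -34.1 points (lncRNA minus protein-coding starts, CpG-rich and CpG-poor), but with 4 units the exact permutation p could not go below 0.125. Leaving out the H3K9ac lists of either number also leaves 4. For these differences the regions stayed those chosen from all 8 H3K27ac lists, so their choice was not repeated. The differences were then -40.0 to -37.0, 10.3 to 10.5, 15.9 to 17.8, 36.4 to 45.5, -7.55 to -6.49 and -35.2 to -33.0 points.

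The Fast minus Fed difference turned to -10.3 points with equal numbers of top-scoring peaks, -3.26 with the upper 0.5 of each list by score and -1.96 with H3K9ac peaks of at least 500 bp; leaving out a list number gave -10.6 to 16. The tetracycline difference then ranged from -2.85 to 8.94 and the difference of the feeding effects from -5.26 to 14.4. The cause was not tested. With list numbers as a replicate block, the feeding and tetracycline differences of 2.69 and 3.04 points had exact permutation p = 0.875 and 0.5; the numbers come from list names only and are not known to pair lists.

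Counts moved more. Regions in all Fast and no Fed list numbered 46 at a distance of 2.5 kb, 0 with at least 6 lists and 90 to 270 with 1 list number left out, and those in all Fed and no Fast list 6, 0 and 35 to 103. The 0 follows from the setting, since 4 lists cannot make 6. H3K9ac in all 8 lists held at 43 regions with equal numbers of peaks, 59 with the upper 0.5 and 219 to 239 (in every list left) without a list number, and H3K9ac in no list at 508 with 2.5 kb, 132 with at least 6 lists, 540 with equal numbers and 672 to 770 without a list number. The number of regions was 1141 with the upper 0.5 of each list and 2060 to 2347 without a list number. Depth per list is unknown, so an absent peak is not shown to be absent acetylation.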
